A study of Mus musculus with 6 samples.

Results

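The 10 genes described here encode 7 matrix metalloproteinases (Mmp2, Mmp3, Mmp9, Mmp10, Mmp11, Mmp13 and Mmp14) and 3 tissue inhibitors of metalloproteinases (Timp1, Timp2 and Timp3). They were taken by symbol from tables of 25793 genes, and all 10 were found and passed the filter on low counts. RNA was sequenced from primary mouse embryonic fibroblasts, cells grown out of E13.5 embryos and kept in medium with 10% fetal bovine serum, from matings of Sptbn1 and Smad3 heterozygous mice. There was 1 library for each of 6 genotypes: SMAD3-/- (both Smad3 alleles knocked out), β2SP+/-; SMAD3+/- (1 knocked-out allele of each gene, called the double heterozygote below), SMAD3+/-, β2SP-/- (both Sptbn1 alleles knocked out), β2SP+/- and wild type (WT). β2SP is beta-2-spectrin, a protein of the membrane skeleton encoded by Sptbn1, and SMAD3 carries the signal of TGF-beta receptors to the nucleus. The labels do not say how many embryos went into a library, which part of either gene was removed or which strain was used. No genotype was sequenced more than once, so no difference has a replicate check and every comparison below describes libraries, not genotypes.

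Matrix metalloproteinases are zinc enzymes that cut extracellular matrix and cell-surface proteins. Most are secreted as inactive proenzymes whose propeptide blocks the zinc site until another protease removes it, and TIMPs bind the active site and stop the enzyme. In fibroblasts, interleukin-1, tumour necrosis factor and growth factors raise the transcription of stromelysins and collagenases through AP-1 and related factors, and TGF-beta is known to lower several of these genes and to raise Timp1.

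Counts on genes came to 21329087 in the library labelled SMAD3-/-, 31125055 in the double heterozygote, 10477425 in SMAD3+/-, 6856680 in β2SP-/-, 6888076 in β2SP+/- and 11407587 in WT. The share of uniquely placed reads on genes was 80.1% and 81.2% in the SMAD3-/- and double heterozygous libraries and 40.9 to 43.3% in the other 4, and 18S ribosomal RNA (Rn18s) was at 349 and 1529 CPM against 64661 CPM in WT, so genotype and library make-up cannot be told apart for those 2 libraries. Sptbn1 transcript was at 54.3% of WT in β2SP-/-, 75.5% in β2SP+/-, 48.9% in the double heterozygote, 72.0% in SMAD3-/- and 110% in SMAD3+/-. Over all 6 libraries its order thus did not follow the number of labelled mutant Sptbn1 alleles. Among the 4 libraries other than SMAD3-/- and the double heterozygote, the level fell as that number rose. Smad3 transcript ran against the labels, at 199% of WT in the library labelled SMAD3-/-, 381% in the double heterozygote and 149% in SMAD3+/-, so every direction tied to Smad3 below is one of labels. The female transcript Xist was at 2747 CPM (the count scaled to a common library size with TMM factors) in SMAD3+/- and at most 16.3 CPM elsewhere, so that library also differs in sex. All 12 fibroblast markers were detected in every library. Their summed level was 18371 CPM in SMAD3-/- and 52686 CPM in the double heterozygote, against 33353 CPM in WT. Of the 12, 1 was higher and 8 lower than WT in SMAD3-/- (24.2% and 25.2% of all genes were), by the rule given below. The double heterozygote had 5 higher and 2 lower (21.6% and 19.1% of all genes). SMAD3+/- had 0 higher and 4 lower (1.64% and 4.46% of all genes). The 2 lower in the double heterozygote are a share near that of all genes. The 1 higher in SMAD3-/- was Vim, vimentin, and the widest fold was that of Dcn, a collagen-binding proteoglycan, at 55.2 CPM in SMAD3-/- and 1301 CPM in WT. Macrophage and leukocyte markers were present too, and are given beside Mmp9 below.

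The 10 genes were compared with WT in each mutant library. Genes count as higher or lower here if the exact 95% interval of the count ratio lies wholly beyond 1.5-fold, and ranges in parentheses after a fold are those intervals, which cover counting error only. In the library labelled SMAD3-/-, 0 of the 10 were higher and 9 were lower, where 24.2% of the 14810 genes compared were higher and 25.2% lower. The double heterozygote had 5 of the 10 higher and 2 lower, beside 21.6% and 19.1% of all genes. In SMAD3+/-, 0 were higher and 6 lower, beside 1.64% and 4.46% of all genes. In β2SP-/-, 0 were higher and 3 lower, beside 0.648% and 0.412%, and in β2SP+/- 0 were higher and 5 lower, beside 0.635% and 1.2%. The 2 genes lower in the double heterozygote are a share near that of all genes. Its 5 higher calls depend on the settings, since DESeq2's size factors end those of Timp1 and Timp2 and add Mmp10 as lower, and only 3 of its 7 calls (Mmp2, Mmp3 and Timp3) are left with intervals widened by the spread among 4 libraries or with a 2-fold threshold. Widened intervals left 4244 of the 14810 genes called there, and the 2-fold threshold 3473. The median log2 ratio of the 10 genes was -2.07 in SMAD3-/-, 0.61 in the double heterozygote, -0.77 in SMAD3+/-, -0.23 in β2SP-/- and -0.46 in β2SP+/-. Over all genes compared it was 0.06, 0.07, 0.01, 0.00 and -0.01 in the same libraries. The 5 comparisons share the WT library, and so are not independent of each other.

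**Figure D1:**
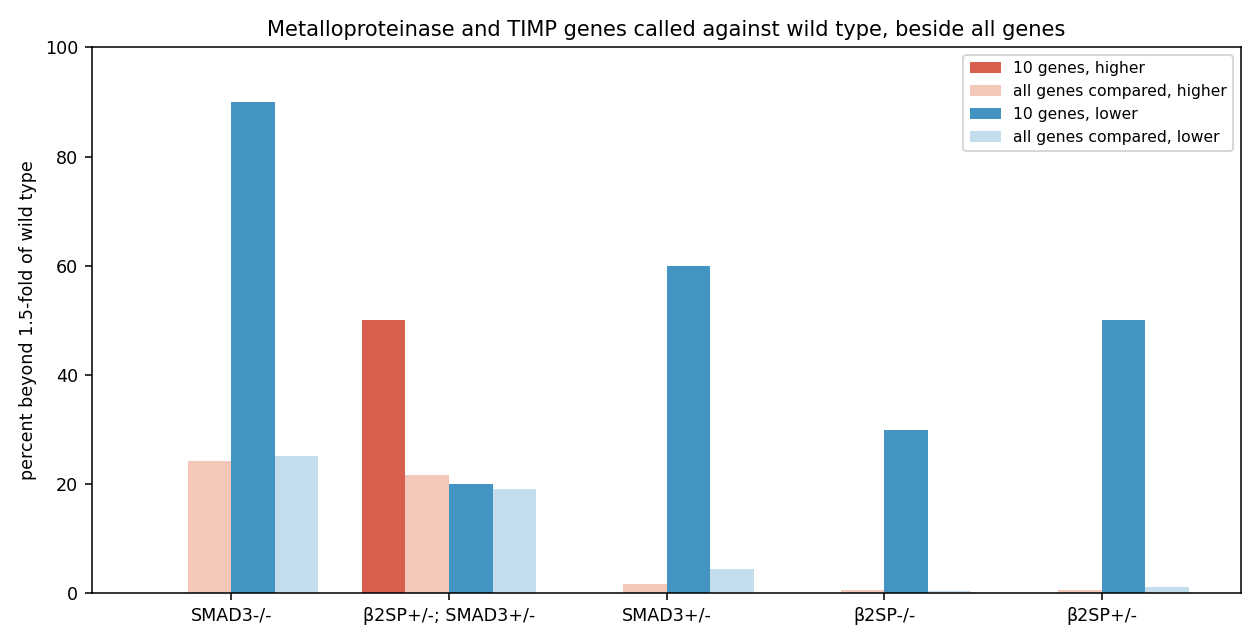
Percent of the 10 metalloproteinase and TIMP genes (dark bars) and of all 14810 genes compared (pale bars) whose 95% counting interval lay beyond 1.5-fold of WT, by mutant library and direction. The double heterozygote is where members were called higher, with 5 of 10.

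Mmp3 encodes stromelysin-1, which cuts proteoglycans, laminin and fibronectin and activates other proenzymes. Its level was 21.9 CPM in SMAD3-/-, 4012 CPM in the double heterozygote, 130 CPM in SMAD3+/-, 219 CPM in β2SP-/-, 176 CPM in β2SP+/- and 436 CPM in WT. The double heterozygote stood far above the rest and SMAD3-/- far below, and all 5 mutant libraries lay beyond 1.5-fold of WT. Mmp3 was 9.2-fold (8.94 to 9.47) higher than WT in the double heterozygote and 20-fold (18.2 to 21.9) lower in SMAD3-/-. It was 3.36-fold (3.16 to 3.57) lower in SMAD3+/-, 2.0-fold (1.88 to 2.12) lower in β2SP-/- and 2.48-fold (2.32 to 2.64) lower in β2SP+/-. In the double heterozygote Mmp3 took 0.405% of all counts on genes and ranked 14 among genes by count, and in SMAD3-/- and WT it ranked 7173 and 274.

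Mmp13 encodes the main interstitial collagenase of the mouse, which opens the triple helix of fibrillar collagens. Its level was 3.11 CPM in SMAD3-/-, 401 CPM in the double heterozygote, 44.0 CPM in SMAD3+/-, 117 CPM in β2SP-/-, 126 CPM in β2SP+/- and 278 CPM in WT. As with Mmp3, only the double heterozygote lay above WT, but here by 1.44-fold (1.39 to 1.5), short of a call. Mmp13 was 89.4-fold (70.5 to 115) lower in SMAD3-/-, 6.32-fold (5.72 to 6.99) lower in SMAD3+/-, 2.37-fold (2.19 to 2.57) lower in β2SP-/- and 2.20-fold (2.04 to 2.37) lower in β2SP+/-. The β2SP-/- and β2SP+/- libraries did not differ from each other in Mmp13 beyond counting error.

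Mmp10 encodes stromelysin-2, a close relative of stromelysin-1. It was the least abundant of the 10 in WT by length-scaled level, and stood at 1.11 CPM in SMAD3-/-, 8.95 CPM in the double heterozygote, 17.1 CPM in SMAD3+/-, 6.13 CPM in β2SP-/-, 4.42 CPM in β2SP+/- and 15.7 CPM in WT. Unlike Mmp3, it was not raised in the double heterozygote, where it was 1.75-fold (1.44 to 2.12) below WT without a call (called lower with DESeq2's size factors), and in SMAD3+/- it was within counting error of WT. It was lower in SMAD3-/- by 14.1-fold (9.24 to 22.4), in β2SP-/- by 2.56-fold (1.81 to 3.68) and in β2SP+/- by 3.54-fold (2.40 to 5.41). Mmp10 and Mmp3 transcripts share 182 of the 1687 stretches of 36 bases in Mmp10 (GENCODE M21), the only such overlap of any of the 10 with the rest of the family. Reads placed at more than 1 site were set apart and counted on no gene, so shared stretches can lower the counts of both genes. With 281 counts on Mmp10 beside 125988 on Mmp3 in the double heterozygote, any Mmp3 reads misplaced on Mmp10 cannot be told apart. The Mmp10 level there is uncertain.

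The promoters of these 3 genes are shown because AP-1 is a known activator of this class. Mmp3 and Mmp13 were highest in the double heterozygote and lowest in SMAD3-/-, as were Mmp2, Mmp14 and Timp2. Mmp10 was highest in SMAD3+/-, within counting error of WT. RefSeq's table for build GRCm38.p6 held promoters of 8 of the 10 genes, without Mmp2 and Mmp9. The 130 bases before the start of transcription lie on the plus strand of chromosome 9 at chr9:7445692-7445821 for Mmp3, chr9:7272384-7272513 for Mmp13 and chr9:7502212-7502341 for Mmp10, and capitals mark the AP-1 motif.
Mmp3: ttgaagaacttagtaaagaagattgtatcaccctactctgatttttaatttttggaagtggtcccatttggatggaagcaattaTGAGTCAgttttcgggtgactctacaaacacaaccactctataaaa
Mmp13: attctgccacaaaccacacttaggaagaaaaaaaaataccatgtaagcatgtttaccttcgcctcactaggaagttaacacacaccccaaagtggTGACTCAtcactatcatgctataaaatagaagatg
Mmp10: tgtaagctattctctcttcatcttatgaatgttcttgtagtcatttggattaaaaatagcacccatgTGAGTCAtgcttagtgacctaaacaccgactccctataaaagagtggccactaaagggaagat
The motif TGAGTCA, or TGACTCA on the other strand, began 46, 35 and 63 bases before the start in Mmp3, Mmp13 and Mmp10. It was found in these 3 of the 8 promoters, searched over 250 bases before the start, and in 4.46% of 32851 promoters in the table. The TATA box letters TATAAA, searched on the gene's strand alone, were found in the same 3 and in 7.59% of all promoters. The Ets letters AGGAAG (either strand) were found in 5 of the 8 promoters (Mmp3, Mmp13, Mmp14, Timp1 and Timp3) and in 29.5% of all, and the Runx letters ACCACA (either strand) in Mmp13 and Mmp14 and in 14.0% of all. The promoters of Mmp14 and Timp2 lacked the AP-1 motif, and that of Mmp10 had it with another order of levels. What these letters do in these cells was not tested.

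**Figure D2:**
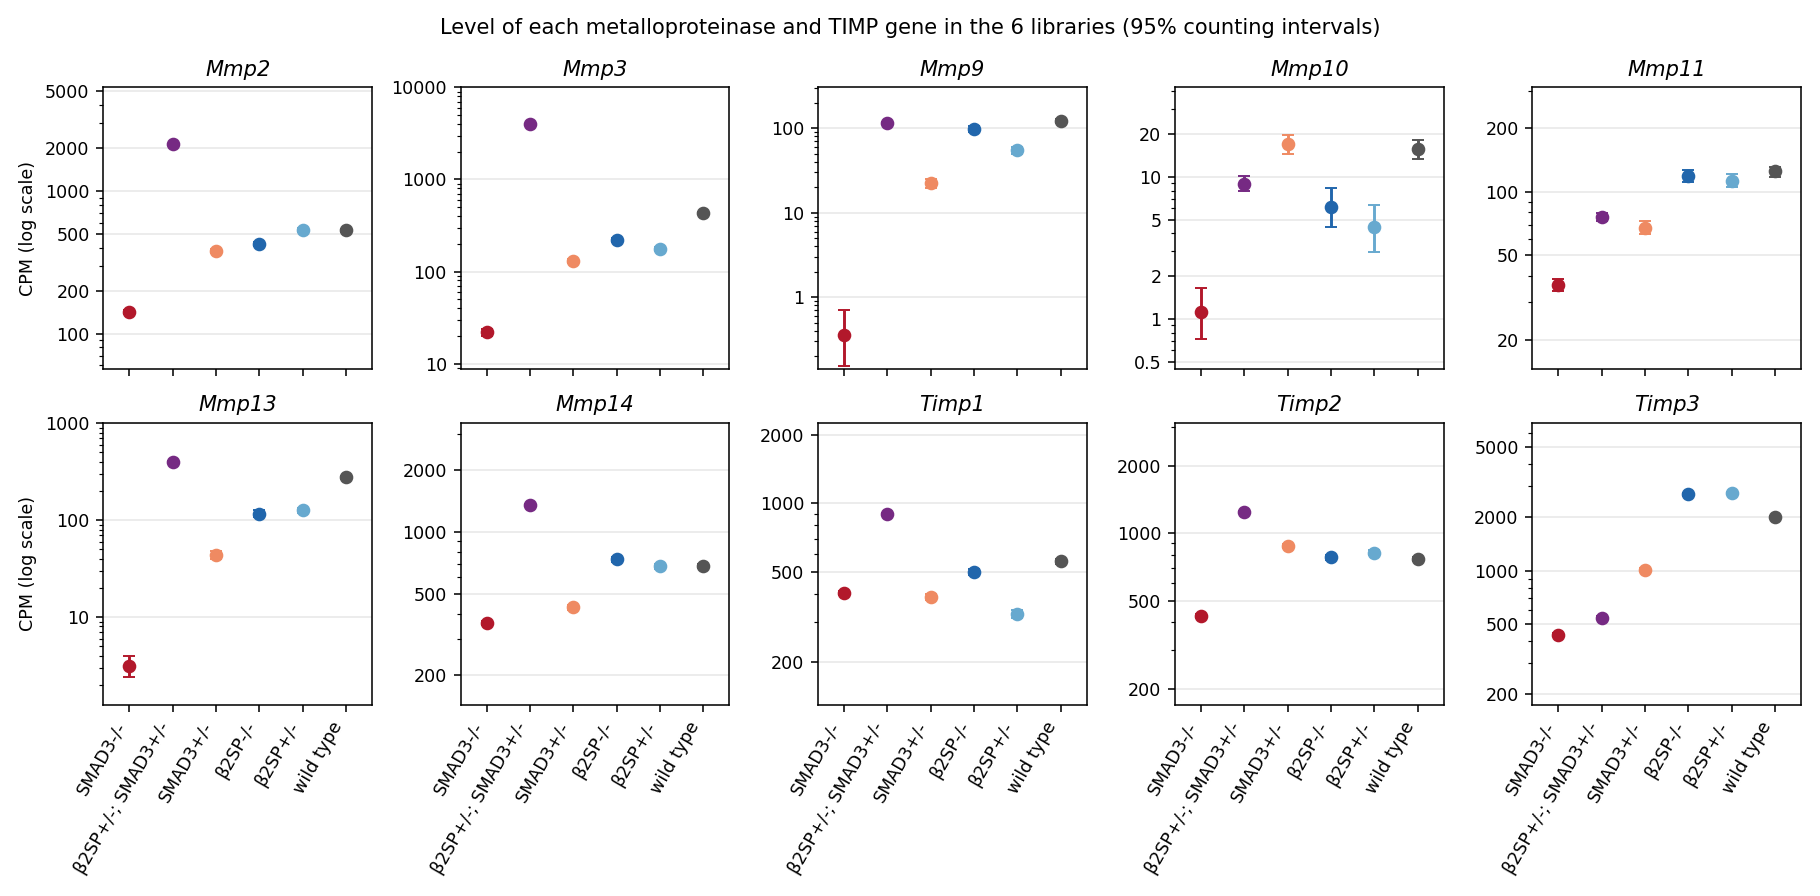
Level of each of the 10 genes in CPM on a log axis, 1 point per library, with exact 95% counting intervals that are often smaller than the point. SMAD3-/- is the lowest library for every gene except Timp1, and the double heterozygote is the highest for Mmp2, Mmp3, Mmp13, Mmp14, Timp1 and Timp2.

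The gelatinases Mmp2 and Mmp9, which cut denatured collagen and the collagen of basement membranes, differed from each other in pattern. Mmp2, the gelatinase made by most fibroblasts, was at 141 CPM in SMAD3-/-, 2140 CPM in the double heterozygote, 382 CPM in SMAD3+/-, 425 CPM in β2SP-/-, 531 CPM in β2SP+/- and 532 CPM in WT. It was 4.03-fold (3.92 to 4.13) higher in the double heterozygote and 3.78-fold (3.62 to 3.95) lower in SMAD3-/-. The other 3 mutant libraries were within 1.5-fold of WT, and β2SP+/- did not differ from WT beyond counting error.

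Mmp9, the gelatinase that leukocytes and osteoclasts also make, was at 0.355 CPM in SMAD3-/-, 116 CPM in the double heterozygote, 22.3 CPM in SMAD3+/-, 98.8 CPM in β2SP-/-, 54.8 CPM in β2SP+/- and 122 CPM in WT. It had 8 counts in SMAD3-/-, where it was 342-fold (173 to 794) lower than WT, the largest fold of the 10 genes in any comparison with WT. It was 5.46-fold (4.74 to 6.30) lower in SMAD3+/- and 2.22-fold (1.98 to 2.5) lower in β2SP+/-. The double heterozygote did not differ from WT beyond counting error, and β2SP-/- was 1.23-fold (1.12 to 1.35) below WT without a call.

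Macrophage and leukocyte markers were lower in some of the same libraries. All 15 of these markers were lower in SMAD3-/-, with a summed level of 70.1 CPM against 2540 CPM in WT. In the double heterozygote 8 were lower and 1 higher (1856 CPM), in β2SP-/- 2 were lower (1714 CPM), and in β2SP+/- 5 were lower (1626 CPM). In SMAD3+/-, where Mmp9 was 5.46-fold lower, 2 markers were lower (Aif1 and Fcgr1) and 1 higher (Mrc1), with a summed level of 2470 CPM. Lyz2 held most of each sum, at 1621 CPM in SMAD3+/- and 1631 CPM in WT. Of all genes, 25.2% were lower in SMAD3-/-, 19.1% in the double heterozygote, 4.46% in SMAD3+/-, 0.412% in β2SP-/- and 1.2% in β2SP+/-. Higher were 21.6% in the double heterozygote and 1.64% in SMAD3+/-. None of the 15 markers was at 0 counts in any library. In whole cultures, fewer cells of a type and less RNA per cell cannot be told apart, and the part of leukocyte RNA in the Mmp9 values was not tested. Osteoclast markers summed to 20.1 CPM in SMAD3-/-, 88.7 CPM in the double heterozygote, 62.5 CPM in SMAD3+/-, 54.7 CPM in β2SP-/-, 74.9 CPM in β2SP+/- and 74.8 CPM in WT, and 2 of the 5 (Ocstamp and Calcr) had 0 counts in WT.

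Mmp14 encodes MT1-MMP, a membrane-anchored collagenase that activates the Mmp2 proenzyme at the cell surface with Timp2 as adaptor. Its level was 360 CPM in SMAD3-/-, 1354 CPM in the double heterozygote, 431 CPM in SMAD3+/-, 736 CPM in β2SP-/-, 679 CPM in β2SP+/- and 684 CPM in WT. It was 1.98-fold (1.93 to 2.03) higher in the double heterozygote, 1.90-fold (1.84 to 1.96) lower in SMAD3-/- and 1.59-fold (1.53 to 1.65) lower in SMAD3+/-. Both libraries labelled for Sptbn1 alone were within 1.08-fold of WT. The 3 genes of this activation step, Mmp14, Mmp2 and Timp2, were all higher than WT in the double heterozygote (21.6% of all genes were) and all lower in SMAD3-/- (25.2% of all genes were). The Timp2 call in the double heterozygote is lost with DESeq2's size factors, and with widened intervals the Mmp14 and Timp2 calls are lost in both libraries.

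Mmp11 encodes stromelysin-3, which is unlike the other stromelysins in being activated inside the cell by furin-type proteases. It was at 36.3 CPM in SMAD3-/-, 76.1 CPM in the double heterozygote, 67.8 CPM in SMAD3+/-, 119 CPM in β2SP-/-, 113 CPM in β2SP+/- and 125 CPM in WT. The 3 libraries labelled with a mutant Smad3 allele were thus below the 3 without one, an order whose share among all genes was not counted. They were lower than WT by 3.43-fold (3.14 to 3.74) in SMAD3-/-, 1.64-fold (1.53 to 1.75) in the double heterozygote and 1.84-fold (1.68 to 2.01) in SMAD3+/-. WT and β2SP-/-, and β2SP-/- and β2SP+/-, did not differ beyond counting error.

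The 3 inhibitor genes did not move as a group. Timp1, a broad inhibitor that is also a growth factor for several cell types, was at 404 CPM in SMAD3-/-, 899 CPM in the double heterozygote, 387 CPM in SMAD3+/-, 499 CPM in β2SP-/-, 326 CPM in β2SP+/- and 557 CPM in WT. It was higher in the double heterozygote (1.61-fold, 1.57 to 1.66, a call that, like that of Timp2 there, is lost with DESeq2's size factors) and lower in β2SP+/- (1.71-fold, 1.63 to 1.80). Timp1 is the member whose level was lowest outside SMAD3-/-, and it was the only one of the 10 not called there, 1.38-fold (1.33 to 1.42) below WT. Timp2, the inhibitor that also serves Mmp2 activation, was at 427 CPM in SMAD3-/-, 1244 CPM in the double heterozygote, 880 CPM in SMAD3+/-, 781 CPM in β2SP-/-, 818 CPM in β2SP+/- and 769 CPM in WT. It was the steadiest of the 10 among SMAD3+/-, β2SP-/-, β2SP+/- and WT, with 1.14-fold between the highest and lowest. It was 1.80-fold (1.75 to 1.85) lower in SMAD3-/- and 1.62-fold (1.58 to 1.66) higher in the double heterozygote.

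Timp3, the inhibitor that binds to the matrix and also blocks ADAM proteases, was lower than WT in the double heterozygote, where Mmp2, Mmp3 and Mmp14 were higher and Mmp11 was lower. Timp3 was at 434 CPM in SMAD3-/-, 542 CPM in the double heterozygote, 1014 CPM in SMAD3+/-, 2702 CPM in β2SP-/-, 2740 CPM in β2SP+/- and 2016 CPM in WT. The 3 libraries labelled with a mutant Smad3 allele were all lower than WT, by 4.64-fold (4.53 to 4.75) in SMAD3-/-, 3.72-fold (3.65 to 3.80) in the double heterozygote and 1.99-fold (1.94 to 2.04) in SMAD3+/-. The Sptbn1 libraries were 1.34-fold (1.31 to 1.37) and 1.36-fold (1.33 to 1.39) above WT in β2SP-/- and β2SP+/-, short of a call, and did not differ from each other beyond counting error. Timp3 and Mmp11 were the 2 members lower in all 3 libraries labelled with a mutant Smad3 allele. The share of all genes lower in all 3 was not counted.

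**Figure D3:**
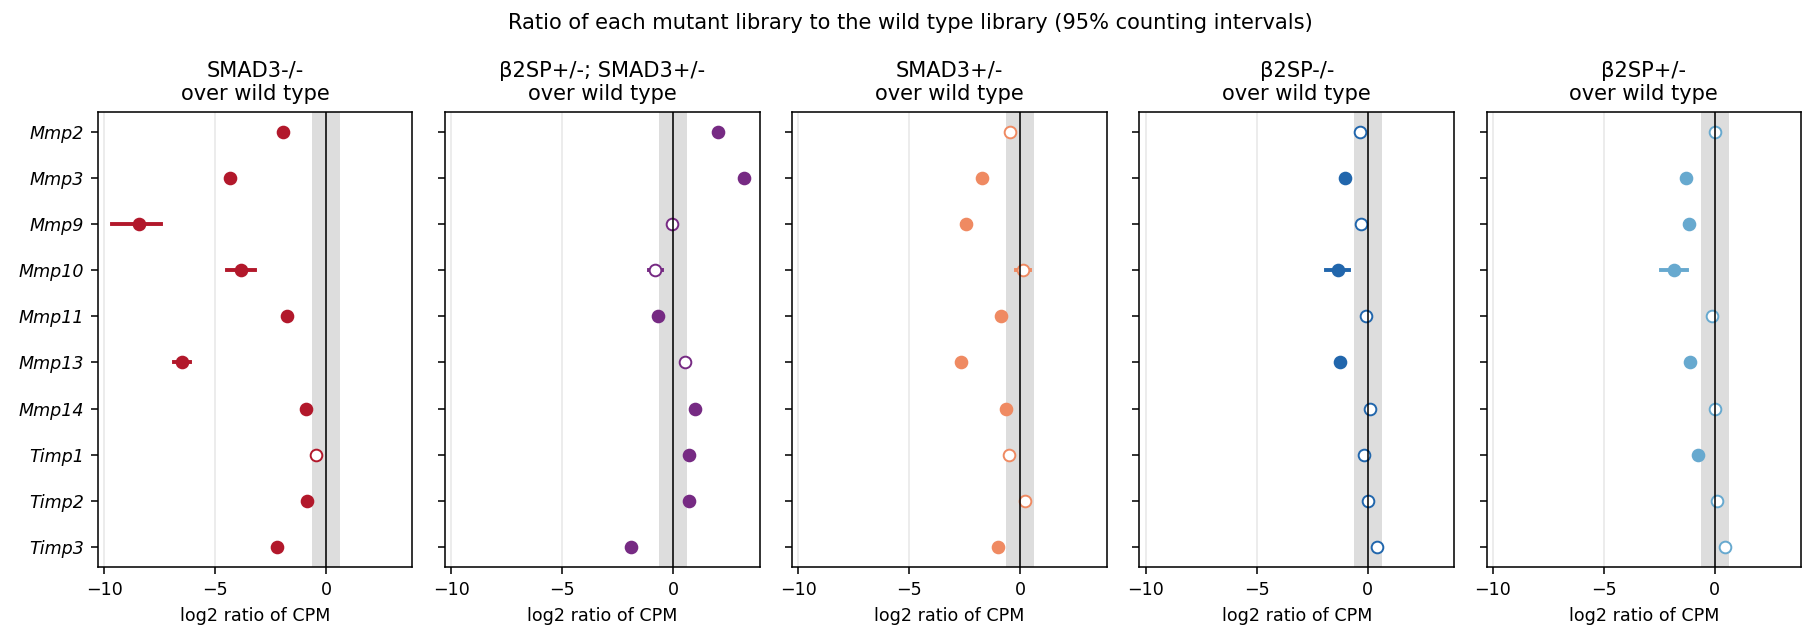
Log2 ratio of each gene's CPM in a mutant library to WT, with 95% counting intervals as lines. Filled points were called beyond 1.5-fold (outside the grey band with the whole interval) and open points were not. Mmp9 in SMAD3-/- is farthest from WT, at a log2 ratio of -8.42, and Mmp3 in the double heterozygote is highest, at 3.20.

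Levels of different genes were compared after division by exon length (GENCODE M21 protein-coding exons), in CPM per kilobase. In WT the order among the enzymes was Mmp3 (242), Mmp2 (173), Mmp14 (163), Mmp13 (104), Mmp11 (54.4), Mmp9 (38.3) and Mmp10 (9.09), and among the inhibitors Timp1 (627), Timp3 (427) and Timp2 (207). The 7 enzymes summed to 162 CPM per kilobase in SMAD3-/-, 3472 in the double heterozygote, 362 in SMAD3+/-, 566 in β2SP-/-, 549 in β2SP+/- and 784 in WT. The 3 inhibitors summed to 663, 1462, 887, 1344, 1167 and 1261 CPM per kilobase in SMAD3-/-, the double heterozygote, SMAD3+/-, β2SP-/-, β2SP+/- and WT. The enzyme sum over the inhibitor sum was 0.244 in SMAD3-/-, 2.37 in the double heterozygote, 0.408 in SMAD3+/-, 0.421 in β2SP-/-, 0.470 in β2SP+/- and 0.622 in WT. Only in the double heterozygote did transcripts of the enzymes outweigh those of the inhibitors, and Mmp3 made up 64.2% of its enzyme sum, against 30.9% in WT. Without Mmp3 the ratio was 0.851 in the double heterozygote and 0.430 in WT, and 0.226 to 0.386 in the other 4 libraries. In SMAD3-/- the largest part of the enzyme sum was Mmp14, at 53.2%. Timp3 made up 13.9% of the inhibitor sum in SMAD3-/- and 7.84% in the double heterozygote, against 33.9% in WT and 49.7% in β2SP+/-. These are sums of transcript levels with no error estimate between cultures, and they say nothing of active enzyme.

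**Figure D4:**
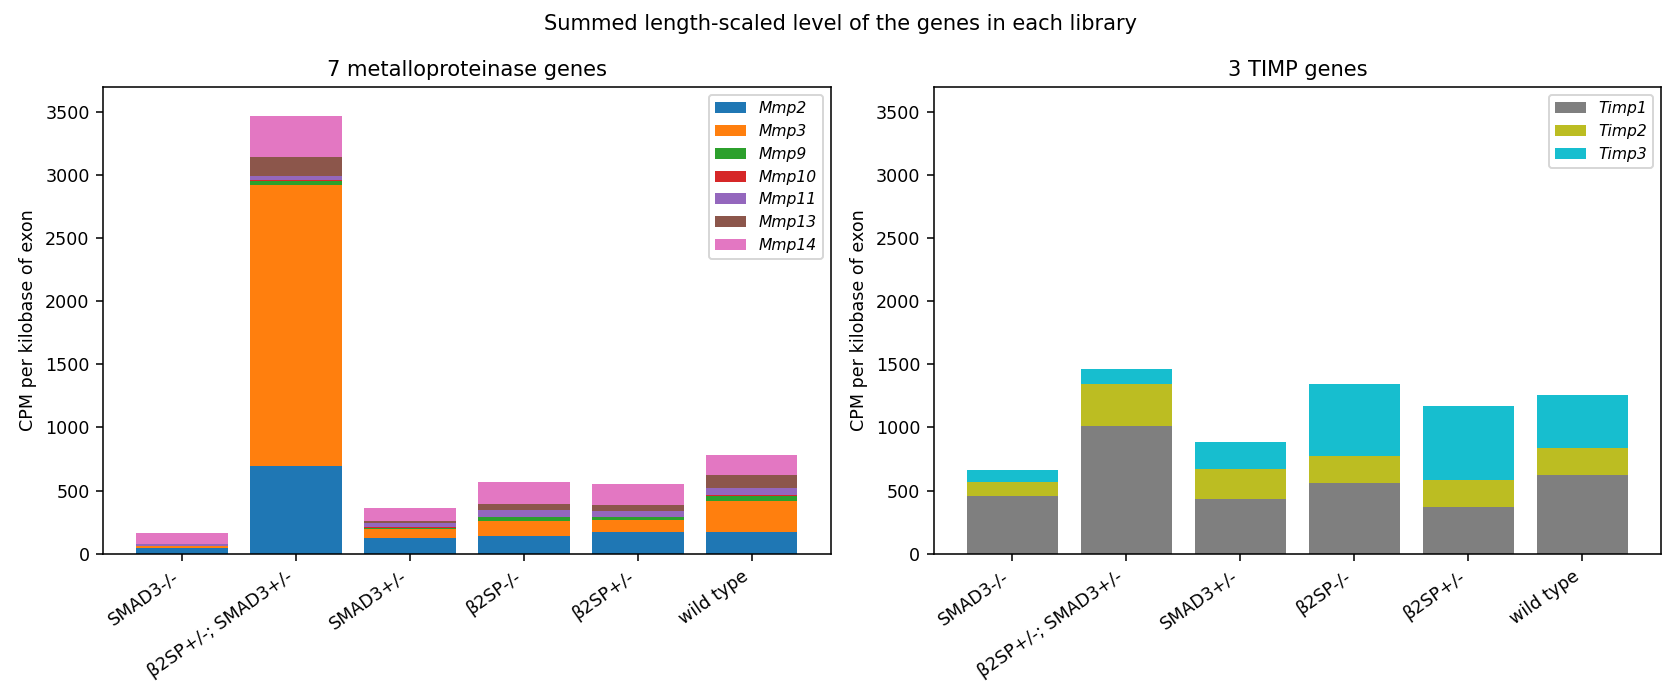
Length-scaled level (CPM per kilobase of exon) of the 7 metalloproteinase genes (left) and the 3 TIMP genes (right), stacked within each library, on the same scale. The enzyme stack of the double heterozygote reaches 3472, with Mmp3 at 2228 of it, against 784 in WT.

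Among the 4 libraries of like make-up, the 3 mutants lacked higher calls in the 10 genes, and Mmp3 and Mmp13 were lower than WT in all 3. These comparisons share the 1 WT library, and the share of all genes lower in all 3 was not counted. The Sptbn1 libraries were compared with each other to ask what differs between both mutant alleles and 1. In β2SP-/- against β2SP+/-, 1 gene was higher and 0 lower, where 0.925% and 0.378% of all genes were. The gene was Mmp9, 1.80-fold (1.59 to 2.05) higher, and Timp1 was 1.53-fold (1.45 to 1.62) above β2SP+/- without a call. The 3 genes lower than WT in β2SP-/-, which were Mmp3, Mmp10 and Mmp13, were also lower in β2SP+/-, against the same WT library. The share of all genes lower in both was not counted.

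The SMAD3-/- and double heterozygous libraries, alike in their share of reads on genes, were the lowest and the highest library for 5 of the 10 genes (Mmp2, Mmp3, Mmp13, Mmp14 and Timp2), whereas for Timp3 they were the 2 lowest. SMAD3-/- had 0 genes higher and 9 lower than the double heterozygote, beside 19.8% and 23.4% of all genes. Mmp9 was 326-fold (165 to 757) lower, Mmp3 184-fold (168 to 201), Mmp13 129-fold (102 to 165) and Mmp2 15.2-fold (14.7 to 15.8). Timp3 was 1.25-fold (1.22 to 1.28) below the double heterozygote and not called. Against SMAD3+/-, SMAD3-/- had 0 genes higher and 8 lower, beside 22.6% and 22.3% of all genes, and the genes not called were Mmp14 and Timp1.

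The double heterozygote was set against each single heterozygote to ask what the second mutant allele goes with. Against β2SP+/-, 6 of the 10 were higher and 1 lower, beside 21.1% and 18.3% of all genes, with Mmp3 22.8-fold (21.5 to 24.1) and Mmp2 4.03-fold (3.90 to 4.17) higher and Timp3 5.06-fold (4.96 to 5.17) lower. Against SMAD3+/-, 6 were higher and 2 lower, beside 22.5% and 19% of all genes, with Mmp3 30.9-fold (29.3 to 32.7), Mmp13 9.10-fold (8.29 to 10.0) and Mmp2 5.6-fold (5.42 to 5.78) higher. The 2 lower genes were Mmp10 (1.91-fold, 1.57 to 2.31) and Timp3 (1.87-fold, 1.83 to 1.92). Mmp2, Mmp3, Mmp9, Mmp13, Mmp14 and Timp1 were higher in the double heterozygote than in either single heterozygote. Both comparisons share the double heterozygous library, and the share of all genes higher in both was not counted. That library also differs in make-up from both single heterozygotes, so allele and make-up cannot be told apart here.

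The effect per labelled mutant allele was fitted over all 6 libraries with edgeR's quasi-likelihood test, which leaves 3 residual degrees of freedom. No gene of 14085 passed an adjusted p of 0.05 for either gene (0% higher and 0% lower), so none of the 10 did. At an unadjusted p under 0.05 there were 3404 genes (24.2%) for Smad3 and 21 (0.149%) for Sptbn1. DESeq2's Wald test called 2058 of the 14085 genes for Smad3, among them Mmp11 and Timp3, and 0 for Sptbn1. Per labelled Smad3 allele, the log2 change of Mmp11 was -0.82 ± 0.16 (SE, Benjamini-Hochberg adjusted p = 0.16 by edgeR) and that of Timp3 was -1.32 ± 0.31 (adjusted p = 0.16 by edgeR). For Mmp11 each of the 3 libraries labelled with a mutant Smad3 allele was below each of the 3 without, and the same held for Timp3. The share of all genes with that order was not counted. Of those libraries, SMAD3-/- and the double heterozygote also differ in make-up and SMAD3+/- in sex. Mmp3 had the largest SE, 2.32 per Smad3 allele around a log2 change of 0.56 and 2.04 per Sptbn1 allele around 1.58. The common biological coefficient of variation was 0.467, and with counts simulated at that spread the fit recovered 1% of genes changed 2-fold per Sptbn1 allele and 75.5% of those changed 4-fold.

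The rest of the family was sparse in these cells. Of 17 further metalloproteinase and TIMP genes, 10 reached 1 CPM in some library. Against WT, 0 were higher and 7 lower in SMAD3-/- (24.2% and 25.2% of all genes), 3 and 4 in the double heterozygote (21.6% and 19.1% of all genes), 2 and 3 in SMAD3+/-, 0 and 0 in β2SP-/-, and 0 and 1 in β2SP+/-. Their median log2 ratio was -2.36, -0.29, -0.61, -0.06 and 0.14 in these libraries. Here and for the lists below, 1.64% and 4.46% of all genes were higher and lower in SMAD3+/-. The same shares were 0.648% and 0.412% in β2SP-/- and 0.635% and 1.2% in β2SP+/-. Mmp12, the elastase of macrophages, was at 0.355 CPM in SMAD3-/-, 37.8 CPM in the double heterozygote, 92.2 CPM in SMAD3+/-, 28.5 CPM in β2SP-/-, 15.8 CPM in β2SP+/- and 45.1 CPM in WT. Mmp17, which encodes a membrane enzyme anchored by a lipid, was at 8.53 CPM in SMAD3-/-, 8.73 CPM in the double heterozygote, 21.2 CPM in SMAD3+/-, 46.0 CPM in β2SP-/-, 62.4 CPM in β2SP+/- and 50.5 CPM in WT, an order close to that of Timp3.

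Mmp3, Mmp10 and Mmp13 lie in a cluster of 10 metalloproteinase genes on chromosome 9, in the order Mmp13, Mmp12, Mmp1b, Mmp3, Mmp1a, Mmp10, Mmp8, Mmp27, Mmp20 and Mmp7 by RefSeq's GRCm38.p6 annotation. Neighbours in the cluster did not move alike in SMAD3+/-. There Mmp13 and Mmp3 were lower than WT, Mmp10 was within counting error of it, and Mmp8, the collagenase of neutrophils, was 3.09-fold higher (10.7 against 3.45 CPM). In the double heterozygote Mmp1b was 5.89-fold higher than WT (9.90 against 1.68 CPM) and Mmp27 was 7.14-fold lower (0.446 against 3.18 CPM). Mmp1b and Mmp27 lie at either side of the Mmp3 and Mmp10 genes.

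Cytokines, growth factors and receptors that act on metalloproteinase transcription were compared too, a list that also holds the interleukin-1 antagonist Il1rn and the TGF-beta genes. Of 18, 0 were higher and 11 lower in SMAD3-/- (24.2% and 25.2% of all genes), 8 and 0 in the double heterozygote (21.6% and 19.1% of all genes), 0 and 4 in SMAD3+/-, 0 and 0 in β2SP-/-, and 0 and 3 in β2SP+/-, with median log2 ratios to WT of -0.93, 0.72, -0.27, 0.02 and -0.17. Il6 was at 3.02 CPM in SMAD3-/-, 67.2 CPM in the double heterozygote and 5.75 CPM in WT, and Tnf, tumour necrosis factor, was at 0.222 CPM in SMAD3-/-, 44.3 CPM in the double heterozygote and 5.40 CPM in WT. Il1b, an interleukin-1 gene, had 0 counts in SMAD3-/-, which allows up to 0.133 CPM. Its level was 14.6 CPM in the double heterozygote, 1.45 CPM in SMAD3+/-, 6.57 CPM in β2SP-/-, 0.589 CPM in β2SP+/- and 7.61 CPM in WT.

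Of 16 transcription factors known to act on metalloproteinase promoters, 8 were higher and 1 lower in SMAD3-/- (24.2% and 25.2% of all genes), and 8 and 1 in the double heterozygote (21.6% and 19.1% of all genes), with median log2 ratios of 0.58 and 0.73. The other counts were 1 and 0 in SMAD3+/-, 0 and 0 in β2SP-/-, and 0 and 1 in β2SP+/-, with medians of -0.02, 0.00 and -0.07. Junb, an AP-1 subunit, was at 99.4 CPM in SMAD3-/-, 146 CPM in the double heterozygote and 18.1 CPM in WT. Fosl1, another AP-1 subunit, was at 17.0 CPM in SMAD3-/-, 7.48 CPM in the double heterozygote, 1.03 CPM in β2SP+/- and 4.51 CPM in WT. Runx2, the bone factor that activates Mmp13, was at 11.6 CPM in SMAD3-/-, 29.4 CPM in the double heterozygote and 143 CPM in WT. Cebpb was 2.13-fold (1.82 to 2.51) higher than WT in SMAD3-/- and 7.65-fold (6.61 to 8.89) higher in the double heterozygote. Nfkb1 was 1.95-fold (1.79 to 2.13) higher in SMAD3-/- and 4.80-fold (4.43 to 5.20) higher in the double heterozygote. The part of these factors and cytokines in the metalloproteinase levels was not tested.

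Of 22 activators and further inhibitors, 6 were higher and 9 lower in SMAD3-/- (24.2% and 25.2% of all genes), 8 and 7 in the double heterozygote (21.6% and 19.1% of all genes), 1 and 5 in SMAD3+/-, 0 and 1 in β2SP-/-, and 0 and 2 in β2SP+/-, with median log2 ratios of -0.18, 0.14, -0.36, -0.07 and -0.26. Pcsk5, a proprotein convertase, was at 4.04 CPM in SMAD3-/-, 42.9 CPM in the double heterozygote, 30.1 CPM in SMAD3+/- and 101 CPM in WT. Tfpi2, a secreted protease inhibitor, was lower than WT in SMAD3+/-, β2SP-/- and β2SP+/-, at 4.26, 3.44 and 2.80 CPM against 9.64 CPM. A2m, the broad trap for proteases, was at 0.178 CPM in SMAD3-/-, 20.4 CPM in the double heterozygote, 2.42 CPM in SMAD3+/- and 6.55 CPM in WT.

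Of 18 genes of matrix proteins that these enzymes cut, 4 were higher and 9 lower in SMAD3-/- (24.2% and 25.2% of all genes), 10 and 1 in the double heterozygote (21.6% and 19.1% of all genes), 0 and 3 in SMAD3+/-, 1 and 1 in β2SP-/-, and 1 and 1 in β2SP+/-, with median log2 ratios of -0.59, 0.72, -0.14, 0.03 and 0.02. The basement membrane collagens Col4a1 and Col4a2 were at 1537 and 752 CPM in SMAD3-/- and 2076 and 1705 CPM in the double heterozygote, against 497 and 469 CPM in WT. Eln, elastin, was at 31.6 CPM in SMAD3-/-, 198 CPM in the double heterozygote, 6.49 CPM in SMAD3+/- and 203 CPM in WT. Spp1, osteopontin, a secreted protein that Mmp3 cuts, was at 1256 CPM in SMAD3-/-, 1944 CPM in the double heterozygote, 270 CPM in β2SP-/-, 353 CPM in β2SP+/- and 707 CPM in WT.

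For each gene, the 3 genes with the most similar profile over the 6 libraries were found among 11206 genes that reached 5 CPM, by the root-mean-square difference of centred log2(CPM + 1). This is a description over 6 libraries of which the SMAD3-/- and double heterozygous ones dominate. Mmp3 had few close matches, 3 within 0.5 log2 units, which were Irg1 (0.422), Tlr2 (0.478) and Mpa2l (0.488). Mmp13 and Mmp9 were among the nearest 3 of each other, at 0.494, and Mmp13 lay nearest to Gbp3 (0.412) and Mmp9 to Ifit1 (0.492). The genes closest to Mmp2 were Prr16 (0.169), Ifi205 (0.180) and Irak3 (0.185), and those closest to Mmp10 were Nfam1 (0.230), Lrrc33 (0.321) and Sash3 (0.385). Timp3 lay close to Plekhb1 (0.138) and to the family member Mmp17 (0.197), and then to Nrg1 (0.211). Mmp11, Mmp14, Timp1 and Timp2 had common profiles, with 1770, 1425, 2898 and 2798 genes within 0.5 log2 units, and their nearest genes were Psd3, Fam162a, Rab3il1 and Gng12.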

How the data were processed

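Total RNA of 6 cultures was sequenced, 1 library per genotype. The deposited values are whole-number read counts per gene symbol. Per the submitters' processing notes, FastQC, Trimmomatic, TopHat2 2.0.10, HTSeq, DESeq2 and build mm9 were used, with no roles given. The annotation and strand setting are not given in the sources used here. The 5 closing summary lines of each table name no gene and were left out of library sizes. Their no-feature line held 11.9 to 32.6% of reads, and their line of reads not placed uniquely held 32.5 to 47.1%.

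The 10 genes and the gene lists were chosen with earlier results of these data known. Counts were scaled with edgeR 4.0.16 (TMM, R 4.3.3). Ratios of 2 libraries were given exact Clopper-Pearson 95% intervals (scipy 1.17.1) over the 14810 genes that reached 1 CPM in any library, and called where the whole interval lay beyond 1.5-fold. In simulated pairs with WT this recovered 58.0 to 75.5% of 2-fold and 89.0 to 96.5% of 4-fold changes. Intervals and the floor of 3 counts cover counting error only. The allele-number fit used edgeR's robust quasi-likelihood test with Benjamini-Hochberg adjustment over the 14085 genes that reached 1 CPM in 2 or more libraries, and DESeq2 1.42.0 as an alternative. Up to 4 called genes per list and comparison with WT were named, by the interval bound nearest to no change. Exon lengths came from GENCODE M21 and promoters from RefSeq, both on GRCm38, matched by symbol, with 6 older symbols of list genes looked up under the tables' names (Sptbn1 is listed as Spnb2).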

Additional observations from a re-analysis of the deposited data

Results flagged for a closer look

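The same added allele went with opposite directions in different backgrounds for 5 of the 10 genes. In each case both ratios were called, the difference between them was not tested, and each ratio compares 1 library with 1 library. The Sptbn1 and Smad3 ratios of a gene come from the same libraries. The gap between backgrounds is therefore the same quantity for both alleles, and the Smad3 values are not separate cases. The share of all genes with such opposite calls was not counted. For 1 mutant Sptbn1 allele, the log2 ratio of Mmp3 was 4.95 in the double heterozygote over SMAD3+/- and -1.31 in β2SP+/- over WT. The same ratios were 2.38 and -1.15 for Mmp9, 3.19 and -1.14 for Mmp13, and 1.22 and -0.77 for Timp1. For 1 labelled mutant Smad3 allele, the log2 ratio of Mmp3 was 4.51 in the double heterozygote over β2SP+/- and -1.75 in SMAD3+/- over WT. It was 1.08 and -2.45 for Mmp9, 1.66 and -2.66 for Mmp13, and 1.00 and -0.67 for Mmp14. All of the first ratios set the double heterozygote, with 81.2% of its uniquely placed reads on genes, against a library with 41.7 or 43.3%, and the part of that difference in the ratios was not tested.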

How the results depend on the processing

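Of 100 member ratios, DESeq2's size factors ended 2 calls (Timp1 and Timp2 in the double heterozygote over WT, at log2 ratios of 0.60 and 0.61) and added 1 (Mmp10 there, -0.89). Total counts and scaling without structural RNA each added 1 call, Timp2 in the double heterozygote over β2SP+/- (0.64 and 0.63), and neither filter changed a call. These settings moved the median log2 ratio of all genes to at most 0.19 in SMAD3-/- over WT and 0.13 in the double heterozygote over WT.

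With the interval beyond 2-fold, 20 member calls were lost. Genes called, of the 14810 compared, fell to 4852 in SMAD3-/- over WT and 3473 in the double heterozygote over WT (3 of the 10). In SMAD3+/- over WT they fell to 434 (3 of the 10). In β2SP-/- and β2SP+/- over WT they fell to 47 (1 of the 10) and 97 (3 of the 10). They fell to 63 in β2SP-/- over β2SP+/- (0 of the 10), 4202 in SMAD3-/- over SMAD3+/-, 3398 and 3613 in the double heterozygote over β2SP+/- and SMAD3+/-, and 3956 in SMAD3-/- over the double heterozygote. With intervals widened by the spread among 4 libraries, 16 member calls were lost. That left 3 of the 10 in the double heterozygote over WT, beside 4244 of the 14810 genes. It left 3 in SMAD3+/- over WT, beside 637 genes, and 0 in β2SP-/- over β2SP+/-, beside 134 genes. In β2SP-/- and β2SP+/- over WT, 104 and 170 genes were left. At 5 CPM, 97 genes were called in β2SP-/- over WT.

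The 4 libraries of like make-up, fitted alone with 1 residual degree of freedom, called 381 genes per Smad3 allele, with 3 of the 10 (Mmp11, Mmp14 and Timp3), and 1 gene per Sptbn1 allele. Its only library with a mutant Smad3 allele is SMAD3+/-, also the only female one, which is assumed to vary like the others, so allele, sex and library cannot be told apart there. DESeq2's Wald test called 2058 of 14085 genes and 2 of the 10 per Smad3 allele. Signs per Sptbn1 allele turned for Mmp11 with DESeq2's size factors or Wald test (-0.01), and in the 4 libraries for Mmp2 (-0.17), Mmp3 (-0.51), Mmp9 (-0.17), Mmp11 (-0.04), Mmp13 (-0.64) and Timp1 (-0.09). Per Smad3 allele they turned for Mmp14 (0.07) and Timp2 (0.20) in carriers against non-carriers, and in the 4 libraries for Mmp2 (-0.53), Mmp3 (-1.53), Mmp10 (0.33), Timp1 (-0.33) and Timp2 (0.17). Leaving out each library in turn called 0 genes and gave log2 changes per Sptbn1 allele from -0.25 to 1.97 for Mmp2, -0.58 to 4.10 for Mmp3, -0.43 to 2.11 for Mmp9, -0.04 to 0.06 for Mmp11, -0.73 to 2.49 for Mmp13, -0.05 to 0.77 for Timp1, -0.11 to 0.52 for Timp2 and -0.27 to 0.20 for Timp3. Per Smad3 allele they ran from -0.97 to 1.36 for Mmp2, -2.02 to 2.88 for Mmp3, -1.49 to 0.26 for Mmp10, -3.11 to 0.37 for Mmp13, -0.46 to 0.42 for Mmp14, -0.14 to 0.71 for Timp1 and -0.42 to 0.47 for Timp2. The cause of these changes was not tested. Mmp9, Mmp11 and Timp3 kept a negative sign per Smad3 allele in every fit run. With each library left out in turn, Mmp9 ran from -3.59 to -0.40 per Smad3 allele. No paired analysis was possible because each genotype has 1 library and the labels carry no replicate numbers. Counts of 8 for Mmp9 and 25 for Mmp10 in SMAD3-/- limit how well those folds are known.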

Other observations

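Markers of other cell types also differed between these cultures, and their part in the metalloproteinase values was not tested. Against WT, 4 of 8 epithelial and mesothelial markers were higher and 1 lower in SMAD3-/- (24.2% and 25.2% of all genes). Their summed level was 102 CPM against 35.1 CPM, and the keratin gene Krt19 was called there. Neural and glial markers summed to 519 CPM in SMAD3-/-, 93.0 CPM in the double heterozygote, 169 CPM in SMAD3+/- and 225 CPM in WT. Nes held most of each sum, at 392, 57.5, 120 and 124 CPM. In SMAD3-/- 3 of 6 were higher and 3 lower (24.2% and 25.2% of all genes). Cartilage and bone markers summed to 190 CPM in SMAD3-/-, 91.6 CPM in the double heterozygote, 194 CPM in SMAD3+/-, 254 CPM in β2SP-/-, 267 CPM in β2SP+/- and 201 CPM in WT. Col2a1, the collagen of cartilage, was higher than WT in SMAD3-/-, the double heterozygote, β2SP-/- and β2SP+/-. It held most of the SMAD3-/- sum, at 151 CPM against 3.36 CPM in WT. Sox9 and Runx2 went the other way there, at 11.4 and 11.6 CPM against 43.3 and 143 CPM in WT. Of the 9 markers compared, 2 were higher and 2 lower in SMAD3-/- (24.2% and 25.2% of all genes). In the double heterozygote 3 were higher and 4 lower (21.6% and 19.1% of all genes). Skeletal muscle markers summed to 20.3 CPM in β2SP+/- to 99.6 CPM in SMAD3-/-, and 63.8 CPM in WT. Des held most of each sum, at 19.7, 92.4 and 63.3 CPM in those libraries. Endothelial markers were sparse, at 12 to 17.3 CPM in the mutant libraries and 16.5 CPM in WT.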
